A study of Mus musculus with 2 samples.

Results

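The genes described here encode proteases that cut the extracellular matrix and cell-surface proteins, and the inhibitors that hold those proteases in check. Members were chosen by symbol alone from the 32285 genes of the count tables, which gave 78 genes: 22 matrix metalloproteinases (Mmp), 33 membrane-anchored disintegrin proteases (Adam), 19 secreted relatives with thrombospondin motifs (Adamts) and the 4 tissue inhibitors of metalloproteinases (Timp). The rule itself used no measured value. Their RNA was measured by droplet single-cell RNA sequencing in bone and marrow cells of the hind-limb long bones. They came from 3 male INK-ATTAC mice aged 24 months, which carry a p16Ink4a-promoter transgene for an inducible caspase 8 and had received no treatment. The mice were pooled, and the cells were depleted of lineage-positive cells and sorted for live CD45- cells, so there is no younger or treated group and no test across mice.

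Mmp enzymes degrade collagens, gelatin and other matrix proteins, and several are made as inactive precursors that other proteases switch on. Adam proteins sit in the membrane and release the outer parts of receptors, cytokines and adhesion molecules, whereas Adamts enzymes are secreted and include proteoglycan-cleaving and procollagen-trimming members. Timp proteins bind the active site of these enzymes, with Timp3 also acting on Adam and Adamts enzymes and Timp2 taking part in the activation of pro-Mmp2 by Mmp14. In bone, this system is known for collagen turnover during remodelling and for opening space in cartilage and marrow.

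The deposit holds 2 count tables labelled as replicates 1 and 2, and the sources differ on their origin, since the labels and 1 legend of the study say the mice were pooled and another legend names independent animals. Of 11056 barcodes, 10928 were in both, and the log10 of their totals correlated at 0.999858 across barcodes. The tables were therefore taken to hold the same cells, summed, and counted as 1 sample. After filtering, 9573 barcodes remained, with a median of 4928.5 UMIs (unique molecular identifiers, 1 per counted RNA molecule) as the mean of the tables. LEPR stromal cells, the Cxcl12-rich reticular cells of the marrow, were the 1873 cells with at least 1 Lepr UMI and a Cxcl12 level of at least 5000 CPM (UMIs of a gene scaled to a fixed total per cell or class). Their 12 markers, which include Lepr and Cxcl12, also all had UMIs in fibroblast-like and erythroid-like cells. The markers summed to 35510 CPM in LEPR stromal, 5617 CPM in endothelial-like, 1307 CPM in fibroblast-like and 43.6 CPM in erythroid-like cells. The other classes were 140 fibroblast-like, 63 endothelial-like, 132 megakaryocyte-like and 6428 erythroid-like cells, named from markers after clustering without the members. The endothelial-like cells formed no cluster of their own in the clustering planned, and were taken from a log-normalized clustering after the data had been seen. Median depth per cell was 2592 UMIs in LEPR stromal, 4234.5 in fibroblast-like, 1578.5 in endothelial-like, 4381.75 in megakaryocyte-like and 14361.5 in erythroid-like cells.

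The fibroblast-like class went partly against its label. Its 13 fibroblast markers all had UMIs and summed to 20972 CPM, against 1143 CPM in LEPR stromal cells, where 12 of them had UMIs. However, 44 of its 140 cells had at least 5 UMIs of the osteoblast genes Bglap, Bglap2, Ibsp and Dmp1. A further 10 had at least 5 UMIs of the mural-cell genes Rgs5, Acta2 and Myh11. Values for these cells are therefore also given apart below. Ibsp is also abundant in LEPR stromal cells, of which 1193 passed the same osteoblast-gene threshold.

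Of the 78 members, 62 had a UMI and 41 had at least 20 UMIs over all kept cells. The 16 without any were Mmp7, Mmp8, Mmp12, Mmp1b, Mmp20, Adamts19 and 10 Adam genes, among them Adam7, Adam18, Adam24 and Adam29. Every Timp gene was detected, as were 17 of 22 Mmp, 23 of 33 Adam and 18 of 19 Adamts genes. Among the 41 members, 15 had their highest CPM in LEPR stromal cells, 13 in fibroblast-like cells, 11 in endothelial-like cells, 2 in erythroid-like cells and 0 in megakaryocyte-like cells. The share of all genes highest in each class was not computed, so these counts describe the 41 genes only. The endothelial-like tally includes Adam1a and Adam22 from 1 and 1 UMIs each, Adam4 from 0 and 1, and Adamts4 from 4 and 2. A count of 0 in that class allows up to 25.0 CPM, so the order of members below that level is not settled. Levels are given as CPM of summed counts, and since a 3′ library counts molecules, CPM can be compared between genes without a correction for length.

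Each cell class had its own balance of the families. In LEPR stromal cells the Adamts genes summed to 1013 CPM (95% exact Poisson interval 986 to 1040.4), the Mmp genes to 752 CPM (729 to 776), the Timp genes to 360.3 CPM (344 to 377) and the Adam genes to 317 CPM (302 to 332). Fibroblast-like cells held more of the Mmp family, at 2475 CPM, and of the Timp family, at 1870 CPM (1777 to 1966), with 809 CPM of Adamts and 282 CPM of Adam genes. In endothelial-like cells Adam genes summed to 625 CPM (491 to 783), Adamts genes to 508 CPM (389 to 652) and Mmp genes to 125 CPM. The Adam and Adamts intervals overlapped, so their order is not settled. Megakaryocyte-like cells held 577 CPM of Timp genes against 21.2 CPM of Mmp and 13.3 CPM of Adamts genes. In erythroid-like cells Adam genes made up 145 CPM and the Timp genes 1.15 CPM. These intervals, and all others here, cover counting error only and say nothing about differences between mice.

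The number of Timp UMIs per protease UMI differed between the classes and within 2 of them. These are ratios of RNA, and no protein was measured. For each Mmp UMI there were 0.479 Timp UMIs (0.454 to 0.506) in LEPR stromal cells and 0.755 (0.706 to 0.808) in fibroblast-like cells. The fibroblast-like value joined 0.318 (0.285 to 0.354) in the 44 osteoblast-gene cells, which is below LEPR stromal cells, and 1.80 (1.63 to 1.999) in the other 96 cells. The corresponding ratio was 7.83 (4.56 to 14.4) in endothelial-like and 27.1 (19.1 to 39.9) in megakaryocyte-like cells. The latter was 64.8 (37.7 to 122) in the 77 cells with at least 10000 CPM of Pf4 and 1.39 (0.745 to 2.66) in the other 55, and 12.3 (8.35 to 18.8) for the class without the 3 cells highest in Timp3. Against Adamts genes, the ratio was 0.356 in LEPR stromal cells, 2.31 in fibroblast-like cells and 1.93 in endothelial-like cells. Erythroid-like cells had the least of all, with 0.0735 Timp UMIs per Mmp UMI (0.0606 to 0.0885) and 0.166 per Adamts UMI (0.136 to 0.202).

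**Figure D1:**
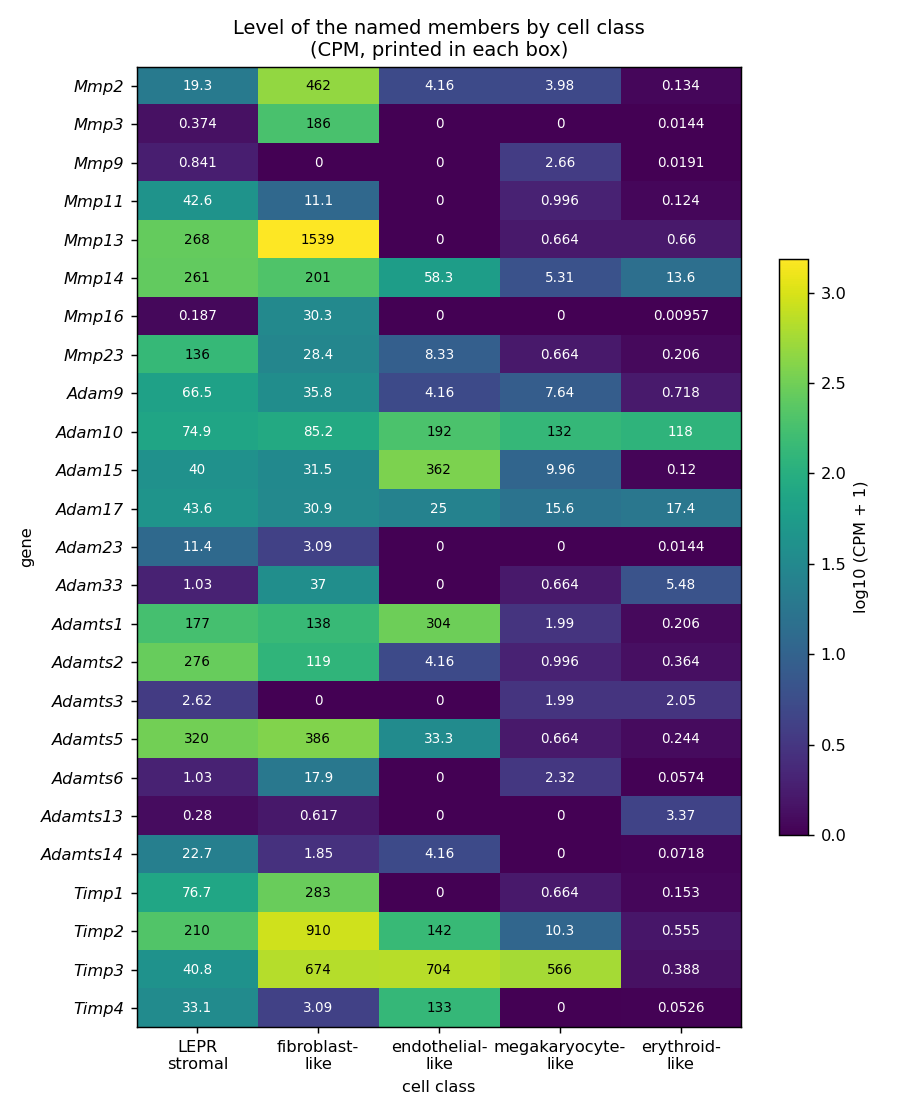
Level of each named member (rows) in the 5 cell classes (columns), with CPM of summed counts printed in each box and the colour showing log10 of CPM plus 1. Adamts5, Adamts2, Mmp13 and Mmp14 head the LEPR stromal column at 261 to 320 CPM, Timp3 is high in fibroblast-like, endothelial-like and megakaryocyte-like cells at 566 to 704 CPM, and Adam10 is present in every column.

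Among the collagenases, which cut fibrillar collagen, Mmp13 was the one detected, as Mmp8 and Mmp1b had no UMI. Mmp13 (ENSMUSG00000050578, GRCm38 chromosome 9, 7272514 to 7283331, plus strand) had 1401 UMIs in replicate 1 and 1465 in replicate 2 in LEPR stromal cells, which is 268 CPM (254 to 282) in 502 cells. Fibroblast-like cells had 1243 and 1250 UMIs, or 1539 CPM (1455 to 1627), in 33 cells. Their Mmp13 lay almost wholly in the cells with osteoblast genes, at 4259 CPM (4022 to 4507) in 28 of 44 cells, against 92.1 CPM (66.9 to 124) in the other 86 fibroblast-like cells and no UMI in the 10 mural-gene cells. A share of 25.9% of the fibroblast-like Mmp13 UMIs came from 1 cell, and the level without the top 3 cells was 871 CPM. Within LEPR stromal cells Mmp13 was spread more widely, with 17.9% of its UMIs in the top 10 of 502 cells.

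Mmp3, a stromelysin that cuts proteoglycans and activates other Mmp precursors, lies with Mmp13 in a run of 9 Mmp genes on chromosome 9 that spans 427 kb (7272514 to 7699585), of which 4 had any UMI. The start of Mmp3 is 162 kb beyond the end of Mmp13, with Mmp12 and Mmp1b between them. Mmp3 had 142 and 160 UMIs in the tables in fibroblast-like cells, or 186 CPM (158 to 219), all in 14 cells, and 2 and 2 UMIs in 1 LEPR stromal cell. In contrast to Mmp13, it was higher in fibroblast-like cells without osteoblast or mural genes, at 247 CPM (204 to 296) in 11 cells, than in osteoblast-gene cells, at 117 CPM (80.5 to 164) in 3 cells. The top 10 cells held 98.0% of its fibroblast-like UMIs, and without the top 3 cells its level was 70.2 CPM.

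The promoters of Mmp13, Mmp3 and Adamts1 are printed because the levels of these 3 genes differed between groups of cells within a stromal class, as described for each. Each shows the 250 bases before the RefSeq transcript start (GRCm38.p6), 5′ to 3′ on the strand of the gene. Mmp13 covers chr9:7272264-7272513 and Mmp3 covers chr9:7445572-7445821, both on the plus strand, and Adamts1 covers chr16:85803114-85803363 on the minus strand. Capitals mark matches on either strand to 4 motifs, which do not overlap each other here. The letters searched were TGANTCA for AP-1, TGTGGT for Runx, TATAAA for the TATA box and GGGCGG for the GC box.
Mmp13: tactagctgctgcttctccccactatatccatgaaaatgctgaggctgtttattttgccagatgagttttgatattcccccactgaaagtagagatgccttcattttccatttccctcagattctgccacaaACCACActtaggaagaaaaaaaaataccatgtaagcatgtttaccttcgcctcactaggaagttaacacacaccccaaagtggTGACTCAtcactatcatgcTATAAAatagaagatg
Mmp3: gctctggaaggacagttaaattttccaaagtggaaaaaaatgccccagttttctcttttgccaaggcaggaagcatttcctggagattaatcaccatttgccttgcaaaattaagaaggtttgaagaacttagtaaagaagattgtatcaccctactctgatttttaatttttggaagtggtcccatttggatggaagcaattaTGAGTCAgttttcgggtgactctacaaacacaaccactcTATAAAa
Adamts1: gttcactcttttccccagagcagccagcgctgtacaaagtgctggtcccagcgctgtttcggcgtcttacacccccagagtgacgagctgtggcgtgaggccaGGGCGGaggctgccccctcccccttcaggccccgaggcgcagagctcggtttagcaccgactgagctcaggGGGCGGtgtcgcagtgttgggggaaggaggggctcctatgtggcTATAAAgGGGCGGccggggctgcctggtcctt
The Mmp13 window held 1 AP-1 match 35 bases before the start, 1 Runx match on the opposite strand at 118 bases and 1 TATA box at 16 bases. The Mmp3 window held 1 AP-1 match at 46 bases and 1 TATA box at 7 bases. The Adamts1 window held no match to the AP-1 or Runx letters, and 1 TATA box at 32 bases and 3 GC boxes. Among all 32851 promoter windows of this length, 6.75% held the AP-1 letters, 14.0% the Runx letters, 12.4% the TATA box and 32.7% the GC box. The windows of 48 of the 78 members were in the table. These matches describe letters and not binding.

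Of the gelatinases, Mmp2 differed between the stromal classes. It was at 462 CPM (417 to 512) in fibroblast-like cells, with 383 and 366 UMIs in the tables and a UMI in 93 of 140 cells, and at 19.3 CPM (15.8 to 23.4) in LEPR stromal cells, with a UMI in 122 of 1873. After thinning replicate 1 to 1000 UMIs per cell, 30.9% of 139 fibroblast-like and 1.95% of 1746 LEPR stromal cells had a Mmp2 UMI at that equal depth. Mmp9, the gelatinase typical of neutrophils and osteoclasts, had 11 UMIs in all kept cells. Its largest count, 4 UMIs, was in 1 megakaryocyte-like cell that also held 768 UMIs of S100a8 and 1524 of S100a9, which are neutrophil genes, and 0 of Pf4. LEPR stromal cells had 5 and 4 Mmp9 UMIs, over 6 cells, and fibroblast-like cells had none, which allows up to 3.70 CPM, so no difference could be read for Mmp9.

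Mmp14, the membrane-type enzyme that activates pro-Mmp2, was instead shared by the stromal classes. It was at 261 CPM (248 to 275) in LEPR stromal cells, where 1112 of 1873 cells had a UMI, and at 201 CPM (171 to 234) in fibroblast-like cells. Mmp16, another membrane-type enzyme, had 24 and 25 UMIs in fibroblast-like cells, 23 and 23 of them in osteoblast-gene cells, and 1 and 1 in LEPR stromal cells. Mmp23, a short membrane-anchored member, was at 136 CPM (126 to 146) in LEPR stromal and 28.4 CPM (18.0 to 42.6) in fibroblast-like cells. Mmp11 was at 42.6 CPM in LEPR stromal and 11.1 CPM in fibroblast-like cells. Its exons overlap those of Chchd10 on the other strand, which had 26572.5 UMIs, and the sources used here do not state whether counting used strand.

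Adamts5, a proteoglycanase, had the highest level of the proteases in LEPR stromal cells. This enzyme, the main aggrecan-cleaving enzyme in mouse cartilage, was at 320 CPM (305 to 336) there with 1665 and 1764 UMIs, and at 386 CPM (344 to 431) in fibroblast-like cells. Adamts1, a further proteoglycanase whose gene lies 53.1 kb away on chromosome 16, was at 177 CPM (166 to 189) in LEPR stromal, 138 CPM (114 to 166) in fibroblast-like and 304 CPM (213 to 419.9) in endothelial-like cells. Endothelial-like Adamts1 rested on 15 cells, and without the top 3 cells it was 108 CPM. Both enzymes were at trace level in megakaryocyte-like cells, at 0.664 CPM of Adamts5 and 1.99 CPM of Adamts1, and in erythroid-like cells, at 0.244 and 0.206 CPM. Without the 44 osteoblast-gene cells the remaining fibroblast-like cells had 193 CPM of Adamts1, and the log2 ratio of LEPR stromal over fibroblast-like cells went from 0.36 (0.07 to 0.65) to -0.13 (-0.42 to 0.18), an interval that includes no difference. Summed immediate-early genes were at 3641 CPM in the cells left out and 9815 CPM in the 86 cells without osteoblast or mural genes, and their part in the Adamts1 level was not tested.

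The 3 procollagen N-propeptidases, which trim collagen precursors before fibrils form, differed in place. Adamts2 was at 276 CPM (262 to 290.1) in LEPR stromal cells, 59.3% of which held a UMI, and at 119 CPM (96.6 to 145) in fibroblast-like cells. Adamts14 was at 22.7 CPM (18.9 to 27.1) in LEPR stromal cells and had 1 and 2 UMIs in fibroblast-like cells. Adamts3 was low throughout, at 2.62 CPM in LEPR stromal and 2.05 CPM in erythroid-like cells, with no UMI in fibroblast-like cells, which allows up to 3.70 CPM. Their substrates showed the reverse order, since Col1a1 was at 232 CPM in LEPR stromal and 3610.0 CPM in fibroblast-like cells and Col3a1 at 184 and 1655 CPM. Without the osteoblast-gene cells the fibroblast-like levels were 1323 CPM of Col1a1 and 2247 CPM of Col3a1.

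Among Adam genes, Adam10, a widely used sheddase of Notch receptors and other surface proteins, was the most evenly spread member. It ran from 74.9 CPM (67.7 to 82.6) in LEPR stromal cells through 85.2, 118 and 132 CPM in fibroblast-like, erythroid-like and megakaryocyte-like cells to 192 CPM (121 to 287) in endothelial-like cells. The LEPR stromal and fibroblast-like intervals overlapped, as did those of megakaryocyte-like and endothelial-like cells. Adam17, the sheddase of tumour necrosis factor, was at 43.6 CPM (38.2 to 49.6) in LEPR stromal and 30.9 CPM (20.0 to 45.6) in fibroblast-like cells, with overlapping intervals, and at 17.4 CPM in erythroid-like cells. Adam15 marked endothelial-like cells at 362 CPM (263 to 487), where 34 of 63 cells held one or more UMIs, against 40.0 CPM in LEPR stromal cells, a log2 difference of -3.18 (-3.65 to -2.67) for LEPR stromal over endothelial-like cells. Adam9 was at 66.5 CPM in LEPR stromal and 35.8 CPM in fibroblast-like cells. Adam23, a member without protease activity, was at 11.4 CPM in LEPR stromal cells. Adam33 was at 37.0 CPM (25.0 to 52.9) in fibroblast-like cells, where all of its UMIs were in cells without osteoblast or mural genes, and at 1.03 CPM (0.357 to 2.31) in LEPR stromal cells.

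The 4 inhibitors were arranged differently from each other. Timp2 was at 210 CPM (198 to 222) in LEPR stromal and 910 CPM (846 to 978) in fibroblast-like cells, and a UMI was found in 50.4% and 90% of the cells, or 17.4% and 54.7% after thinning. Timp3 was at 40.8 CPM (35.6 to 46.6) in LEPR stromal, 674 CPM (618 to 733) in fibroblast-like, 704 CPM (562 to 871) in endothelial-like and 566 CPM (528 to 605) in megakaryocyte-like cells. A single fibroblast-like cell held 39.7% of that class's Timp3 UMIs, and without it the level was 422 CPM. Timp1 was at 76.7 CPM (69.5 to 84.5) in LEPR stromal and 283 CPM (247 to 322) in fibroblast-like cells, where osteoblast-gene cells held 689 CPM (595 to 793) and the other 86 cells 72.2 CPM (50.1 to 100.6). Timp4 was higher in LEPR stromal than in fibroblast-like cells, at 33.1 CPM (28.4 to 38.3) against 2 and 3 UMIs, and it reached 133 CPM (76.2 to 216) in endothelial-like cells from 9 cells. Its log2 ratio of LEPR stromal over fibroblast-like cells was 3.42 (1.72 to 6.02), but 0.71 (0.01 to 1.48) when clustering at a resolution of 0.4 enlarged the fibroblast-like class to 188 cells. Timp1, in contrast, had no UMI in endothelial-like cells, which allows up to 25.0 CPM.

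Set against each other, LEPR stromal cells were below fibroblast-like cells in the Mmp sum by a log2 ratio of -1.72 (-1.80 to -1.64) and in the Timp sum by -2.38 (-2.47 to -2.28). The Adamts sum was slightly higher in LEPR stromal cells, at 0.32 (0.21 to 0.44), and the Adam sum was not distinguishable at this depth, at 0.17 (-0.03 to 0.38). Of 30 members with at least 20 UMIs over both classes, 3 were at least 4-fold higher in LEPR stromal cells (Timp4, Adamts14 and Mmp23), where 4.17% of all 11758 genes were past that fold. A further 8 were at least 4-fold lower (Mmp3, Mmp16, Adam33, Mmp2, Adamts6, Timp3, Mmp13 and Timp2), where 3.23% of all genes were. Timp2 lay near the threshold, and its log2 ratio ranged from -2.42 to -1.97 over the alternative settings, the last just under 4-fold. At 2-fold, 9 were higher and 9 lower, where 17.8% and 9.58% of all genes were. Of the 23 members with at least 100 UMIs, 3 were at least 4-fold higher and 5 lower, where 5.7% and 1.92% of all genes were. The median log2 ratio was 0.27 over the members and 0.21 over all genes. The lower limit of 20 UMIs over both classes lets in genes that are high in 1 class only, so these counts describe the 30 genes and not the family as a whole.

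**Figure D2:**
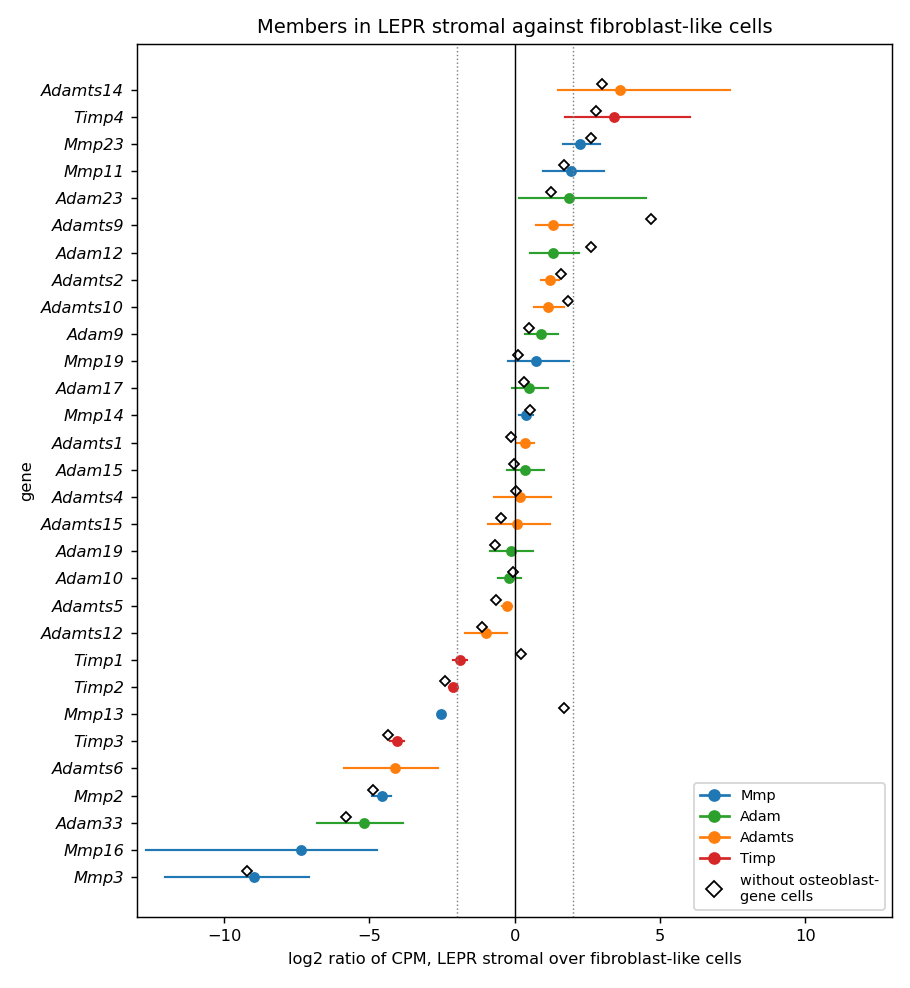
Log2 ratio of CPM in LEPR stromal over fibroblast-like cells for the 30 members with at least 20 UMIs over both, as filled points coloured by family with 95% counting intervals. Dotted lines mark 4-fold. Open diamonds give the ratio without the 44 osteoblast-gene cells of the fibroblast-like class alone, which takes Mmp13 from -2.52 to 1.68 and Timp1 from -1.88 to 0.23.

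Part of this contrast turned on the osteoblast-gene cells in the fibroblast-like class. The 44 such cells of that class were left out, while the 1193 LEPR stromal cells past the same threshold stayed in. The 2 sides are therefore not matched for these genes. Without those 44 cells the log2 ratio of Mmp13 went from -2.52 (-2.63 to -2.41) to 1.68 (1.25 to 2.15), so Mmp13 was then higher in LEPR stromal cells. Timp1 went from -1.88 to 0.23 (-0.27 to 0.78), and Adamts9, a proteoglycanase named after its values were seen, from 1.32 to 4.70 (2.60 to 8.50), the latter from 2 and 1 UMIs in the remaining fibroblast-like cells. Mmp2 at -4.88, Mmp3 at -9.23 (-12.29 to -7.34, with its LEPR stromal UMIs in 1 cell), Adam33 at -5.79, Timp3 at -4.36 and Timp2 at -2.40 stayed at least 4-fold lower in LEPR stromal cells. Of the members that had been at least 4-fold higher, Mmp23 at 2.64 and Timp4 at 2.80 (1.10 to 5.40) remained so, and Adamts9 and Adam12, at 2.63, were added. Adamts14 was at 3.00 (0.87 to 6.81) and was not counted, because its few fibroblast-like UMIs were set to 3 for the count and its ratio was then just under 4-fold. In all, 4 of 28 members were then higher and 5 lower, where 4.17% and 3.31% of all 11648 genes were. The Mmp sum then stood at -0.57 and the Timp sum at -2.49.

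**Figure D3:**
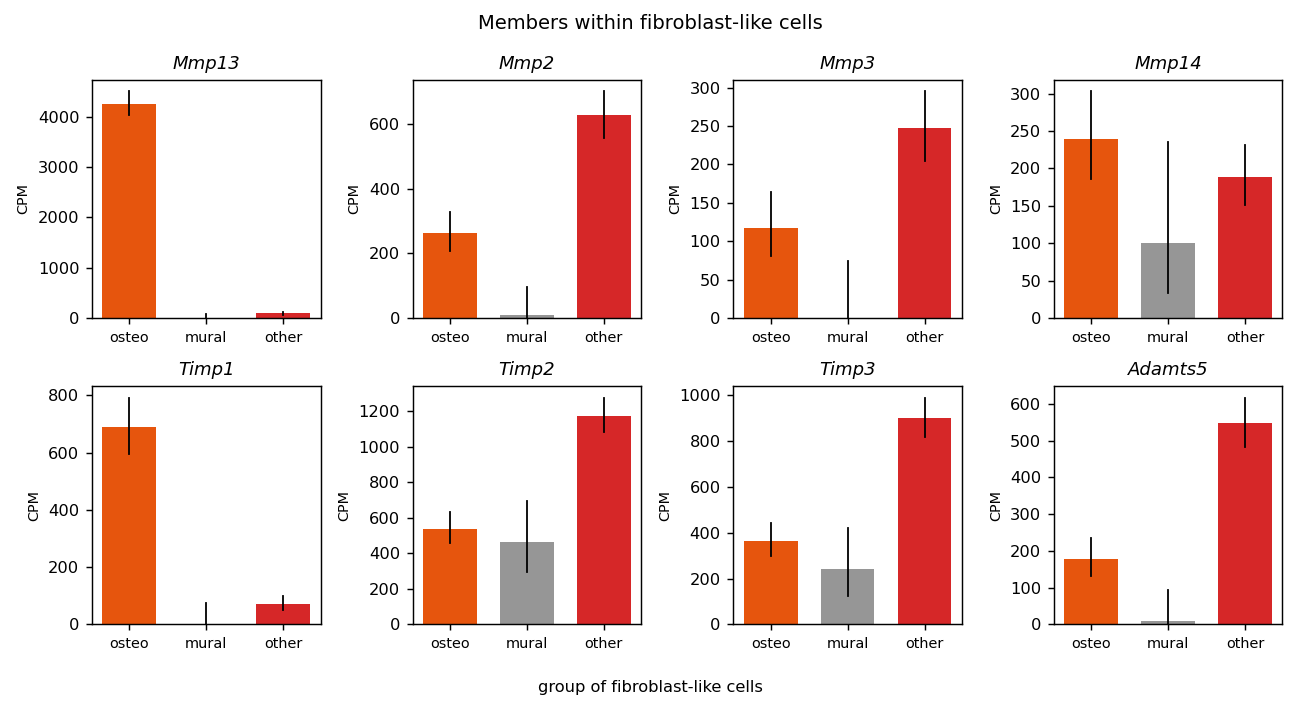
CPM of 8 members in the 44 osteoblast-gene cells (osteo), the 10 mural-gene cells (mural) and the other 86 cells of the fibroblast-like class, as bars with 95% Poisson counting intervals. Mmp13 and Timp1 stand highest in the osteoblast-gene cells, at 4259 and 689 CPM, and Mmp2, Mmp3, Timp2, Timp3 and Adamts5 in the other cells.

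Clustering the 140 fibroblast-like cells again without the members gave 3 groups of 71, 40 and 29 cells. The group of 40, led by Cd248, Dpep1, Ccn3, Adm and Ccl11 and with Pi16 and Clec3b among its top 10 genes, had 1024 CPM of Adamts5 (886 to 1176), 1555 CPM of Timp2 (1385 to 1739.9) in all 40 cells and 126 CPM of Adam33 (81.0 to 186), with no Mmp13 UMI. The group of 29, led by Car3, Dmp1 and Tnc, had 5100.4 CPM of Mmp13 (4797 to 5418), 829 CPM of Timp1 and 111 CPM of Mmp16 (70.5 to 167), and no UMI of Mmp3 or Adam33. The group of 71, led by Fmod, Chad, Ecrg4 and Thbs4, genes of tendon and cartilage-like tissue, had 979 CPM of Timp3 (886 to 1080.1), of which 1 cell held 216.5 of 399.5 UMIs, and 289 CPM of Mmp3 (239 to 346). Adamts6 had 10 and 13 of its 14 and 15 fibroblast-like UMIs in the group of 71.

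LEPR stromal cells also divided by their protease RNA. Clustering them again gave 6 groups of 622, 435, 361, 308, 92 and 55 cells, numbered 0 to 5 by size. Adamts1 stood at 552 CPM (503 to 605) in the 308 cells of group 3, in 76% of which it had a UMI, and at 70.4 to 127 CPM in the other 5 groups. That group was led by Gm26802, Fos, Fosb and Egr1, and 8 immediate-early genes (Fos, Fosb, Jun, Junb, Egr1, Ier2, Atf3 and Nr4a1) summed to 9939 CPM in it against 452 to 1226 CPM elsewhere. Adamts4, another proteoglycanase, was highest there too at 34.0 CPM (22.7 to 49.0), while Adamts5 was at 326 CPM in it and at 380.1 CPM in group 0. Immediate-early genes are known to respond to tissue digestion, and the part of digestion in the Adamts1 level was not tested.

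Mmp13 showed another division. It was at 366 CPM (340.1 to 393) in the 622 cells of group 0, led by Ibsp, Iigp1 and Angptl1, and at 79.1 CPM (62.9 to 98.2) in the 361 cells of group 2, led by Mrap, Lgals1 and Serpina12 and with the highest Adipoq at 1709 CPM. Group 2 had the most Timp2, at 289 CPM (257 to 323), and Timp4, at 57.9 CPM (44.2 to 74.5), and less Adamts5, at 228 CPM (200.1 to 259), than groups 0, 1 and 3. Mmp14 was highest in group 1, at 389 CPM (351 to 430.5). That group was led by Lars2, Dnm3os and Col27a1, with Gm42418 among its top 10 genes, and had 50735 CPM of mitochondrial RNA against 31895 to 37938 CPM in groups 0, 2 and 3. Group 4 had more mitochondrial RNA, at 89668 CPM, and less Mmp14 than group 1. The part of RNA quality in the Mmp14 level was not tested. Group 4, with the highest mitochondrial level at 89668 CPM and led by Kcnq1ot1, had 248 CPM of Adamts10 (172 to 347) against 30.2 to 111 CPM in the others. In group 5, 39 of 55 cells were called doublets.

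**Figure D4:**
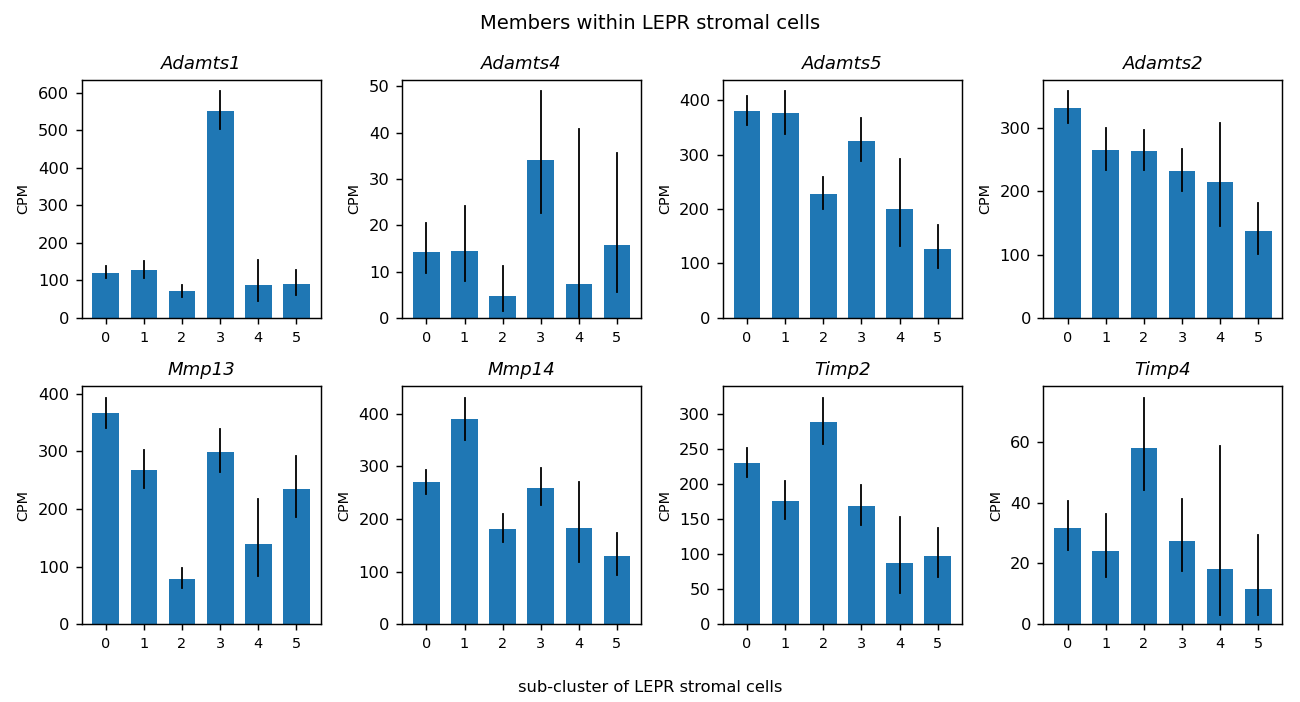
CPM of 8 members in the 6 groups of LEPR stromal cells (0 to 5 on the horizontal axis), as bars with 95% Poisson counting intervals. Adamts1 is at 552 CPM in group 3 and at 70.4 to 127 CPM in the others, while group 2 has the lowest Mmp13, 79.1 CPM, and the highest Timp2 and Timp4.

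Endothelial-like cells differed from LEPR stromal cells in both directions. Of 26 members with at least 20 UMIs over both classes, 5 were at least 4-fold higher in LEPR stromal cells (Adamts2, Mmp23, Adamts5, Mmp14 and Mmp13, the last with no endothelial-like UMI), where 2.68% of all genes were. A further 3 were at least 4-fold lower, namely Timp3 at a log2 ratio of -4.11 (-4.48 to -3.73), Adam15 at -3.18 and Timp4 at -2.01 (-2.75 to -1.17), where 3.56% of all genes were. With 63 cells of low depth, members under the floor of 25.0 CPM could not be ranked in this class.

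Megakaryocyte-like cells were dominated by a single inhibitor. Timp3 had 845 and 859 UMIs in the tables, in 65 of 132 cells, at 566 CPM, and the level without the top 3 cells was 293 CPM. Timp3 was unevenly spread over cells with more and less Pf4, the platelet factor stored in mature granules. The 77 cells with at least 10000 CPM of Pf4 had 902 CPM of Timp3 (842 to 966), and it was detected in 76.6% of them. The 55 cells below had 33.4 CPM (20.3 to 51.9), and it was detected in 10.9%. Median depth was 4624.5 and 3800.5 UMIs in these groups. The lower group also held markers of other blood cells. Its 8 neutrophil markers summed to 9712 CPM, against 2.17 CPM in the upper group, its 7 plasma cell markers to 4602 against 214 CPM and its 5 T and NK cell markers to 366 against 29.3 CPM. The 7 macrophage markers were alike, at 330 and 350 CPM. Neutrophil markers were found in 10 of the 55 cells, and 1 cell held 768 UMIs of S100a8 and 1524 of S100a9. Plasma cell markers were found in 45 of the 55 and 62 of the 77 cells, and T and NK cell markers in 13 and 14. Of its 55 cells, 23 had no Pf4 UMI and 23 had a UMI of Ptprc (CD45), which was found in 7 of the 77. In the 32 cells of the lower group that did have a Pf4 UMI, Timp3 was at 88.2 CPM (53.5 to 137). The part of these other cells in the Timp3 values was not tested. Timp3 shares exon sequence with Syn3 on the opposite strand, and Syn3 stood at 44.4 and 3.43 CPM in the same groups. Adam10 was at 169.7 CPM (144 to 198) and 73.7 CPM (53.3 to 99.3).

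In erythroid-like cells most members were at trace level. Cxcl12, which these cells are not known to make, was at 23.8 CPM in them, or 0.107% of its LEPR stromal level of 22239 CPM. Lpl, Adipoq and Serpine2, other genes of LEPR stromal cells, stood at 0.106, 0.107 and 0.108% of theirs, which was taken as the level of RNA carried over. Of 26 members with at least 20 UMIs in LEPR stromal cells, 22 were in erythroid-like cells below 1% of their LEPR stromal level. Among them were Adamts5 at 0.0761% and Timp2 at 0.265%, and also Timp3 at 0.949% and Mmp2 at 0.693%, which are above the carry-over level. That minimum favours members high in LEPR stromal cells, and the share of all genes below 1% was not computed. The count therefore describes these 26 genes only. In the comparison of LEPR stromal with erythroid-like cells, 28 of 37 members were at least 4-fold higher in LEPR stromal cells, where 32.8% of all 13859 genes were, and 2 were at least 4-fold lower (Adamts13 and Adam33), where 7.1% of all genes were. Adam10 at 158%, Adam17 at 39.8% and Mmp14 at 5.22% of the LEPR stromal level stood well above the carry-over level. Adamts13, the protease that cuts von Willebrand factor, had 353 and 351 UMIs in 359 erythroid-like cells, 3.37 CPM (3.03 to 3.74), and 2 and 1 UMIs in LEPR stromal cells. Adam33 had 562 and 583 UMIs in 656 erythroid-like cells, 5.48 CPM (5.04 to 5.95), which was above its LEPR stromal level.

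These erythroid members shifted with the share of globin in a cell, which rises as red cells mature. Mmp14 was at 27.5 CPM (25.4 to 29.7) in the 1914 cells with under 0.5% globin UMIs and lower in each following bin, at 17.8, 10.8, 6.76 and 4.17 CPM (2.98 to 5.67) in the 578 cells with at least 6%. Adamts3 went the same way from 5.30 to 0.469 CPM and Adam17 from 23.3 to 10.4 CPM. Adam33 ran in the other direction from 1.37 CPM (0.941 to 1.92) to 12.6 CPM (10.5 to 15.1), and Adam10 from 91.8 to 143 CPM. Adamts13 was highest at 4.37 CPM between 2.5 and 6% globin and at 1.61 CPM above it. Cxcl12 stayed between 21.2 and 30.6 CPM over the bins. Median depth per cell ranged from 5275 UMIs in the lowest bin to 21042 UMIs in the bin from 2.5 to 6%.

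**Figure D5:**
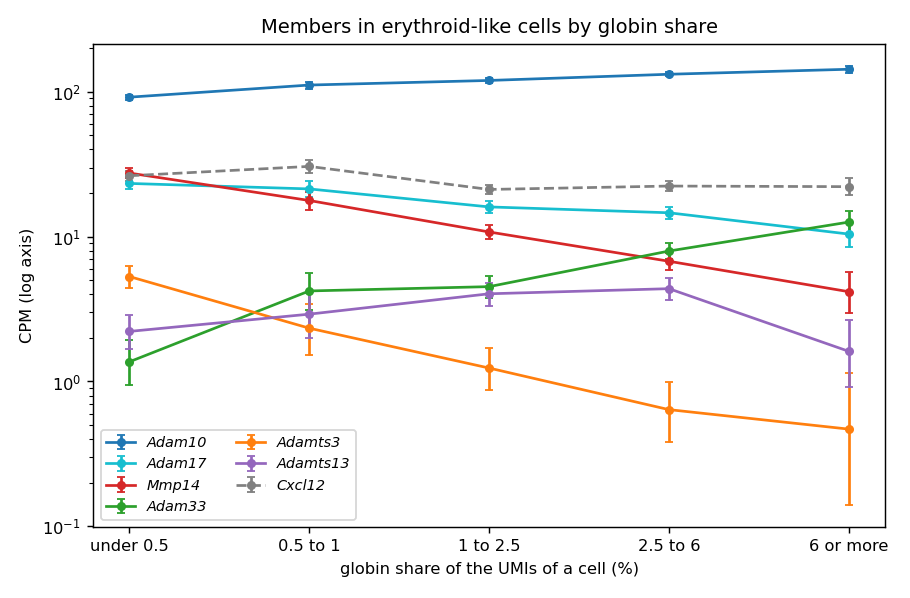
CPM (log axis) of 6 members and of Cxcl12 in erythroid-like cells, in 5 bins of the globin share of a cell's UMIs, with 95% Poisson counting intervals. Mmp14, Adamts3 and Adam17 are lower and Adam33 and Adam10 higher at larger globin shares, while Cxcl12 (dashed), the mark of RNA from stromal cells, stays between 21.2 and 30.6 CPM.

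Other genes of the system were counted by the same fold between LEPR stromal and fibroblast-like cells. Of 12 tested activators and inhibitors of Mmp enzymes, 1 was at least 4-fold higher in LEPR stromal cells and 3 were lower, where 4.17% and 3.23% of all genes were. The same shares apply to the other lists. The higher one was A2m, a broad protease trap, at 32.2 CPM with no UMI in fibroblast-like cells. The lower ones were the proprotein convertase Pcsk6, at 0.654 against 97.6 CPM, and the plasminogen activators Plat, at 0.748 against 45.1 CPM, and Plau, at 0.374 against 32.7 CPM. Serpine2, an inhibitor of plasminogen activators and thrombin, was abundant in both, at 4798 CPM in LEPR stromal and 1679 CPM in fibroblast-like cells, and Reck, a membrane inhibitor of Mmp enzymes, was at 34.7 and 44.5 CPM. Of 6 Adam cofactors tested, 0 passed the fold in either direction. Of 14 matrix substrates, 7 were at least 4-fold lower in LEPR stromal cells (Col1a1, Col3a1, Col2a1, Acan, Dcn, Fn1 and Eln) and 0 were higher. Without the osteoblast-gene cells 5 of 13 were lower, where 3.31% of all genes were, since Col2a1, at 15.2 CPM in the remaining fibroblast-like cells, no longer passed and Acan, at 15.2 CPM, fell under the minimum of UMIs. Serpine2, at 557 CPM in those cells, was then at least 4-fold higher in LEPR stromal cells, and Tspan5 and Adamtsl1 were lower. Of 5 Adamts-like genes tested, Thsd4 was higher, at 87.7 against 4.94 CPM.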

How the data were processed

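The authors sequenced cells of pooled mice with the 10x 3′ chemistry and deposited counts of UMIs per gene and barcode in 2 tables, made with Cell Ranger on mm10 and labelled as replicates 1 and 2. The version is given differently in the methods and in the file header. The deposited counts are raw. Whether counting used strand is not given in the sources used here, so genes overlapping a member on the other strand are named beside it. The submitters' processing notes also list R and Seurat.

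Barcodes with at least 200 genes and at most 20% mitochondrial UMIs in the summed tables were kept. The tables held 116827845 and 120556381 UMIs. Because they shared nearly all barcodes and totals, they were taken as repeat readings of the same cells, although 1 legend of the study names independent animals, and were summed, counted as 1 sample, and given as their mean. No test across samples was possible, and no p-value is given. Intervals are 95% exact Poisson for levels, exact conditional binomial for ratios and Clopper-Pearson for shares. PCR is handled by the UMIs, and intervals cover counting error only, with Poisson counts rounded from the mean of the tables where needed. A count of 0 allows up to 3 counts. Classes came from Seurat 5.3.0 with sctransform 0.4.2 (R 4.3.3; 3000 variable genes, 30 components, resolution 0.8) with the members left out, and from the Lepr and Cxcl12 thresholds. The endothelial-like class, from a log-normalized clustering, was chosen after seeing the data. Doublets were called with scrublet in scanpy 1.11.5 (Python 3.11.15) and left in. For equal depth, replicate 1 was thinned to 1000 UMIs per cell. Ratios needed at least 20 UMIs over both classes, and 4-fold was the threshold. Printed ratios are of the counts as they stand. For the counts of members past the threshold alone, a class under 3 counts was set to 3, and no member was counted where the higher class itself held fewer.

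The members and gene lists were chosen with earlier results of these data known. Members named by rule were the Timp genes, Mmp2, Mmp9, Mmp13 and Mmp14, the 6 highest in each class with at least 10 UMIs, and the 5 largest ratios in each direction between LEPR stromal and fibroblast-like cells. Other members named were chosen after their values were seen. The ratio code was tested on simulated data for LEPR stromal against fibroblast-like cells. Of 193 genes changed 8-fold among 11772, 91.7% were past the threshold, as were 0.0605% of the unchanged genes. Alternatives covered doublets, thresholds on cells, genes and Cxcl12, resolution, clustering with the members, averaging over cells, the minimum of UMIs, the fold and each table alone. After seeing the data, leaving out the top cell of each gene, leaving out the osteoblast-gene cells, leaving out the 3 cells highest in Timp3, globin bins and the Pf4 split were added. Promoters came from RefSeq (GRCm38.p6) and positions from GENCODE M21.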

Additional observations from a re-analysis of the deposited data

How the results depend on the processing

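No paired analysis was possible because the 2 tables were taken as 1 sample of 1 group and no test was made. A ratio counted as unchanged if it stayed within its main counting interval, and a count of members if its fold change stayed under a fixed limit. A ratio counted as reversed if it changed sign and its main interval left out 0. Across the alternatives, 96 values of the family ratios and member counts were unchanged by these rules and 15 moved further. For single members 300 stayed, 21 moved and 3 reversed. The log2 ratio of the Mmp sum (LEPR stromal over fibroblast-like cells, -1.72) was -1.61 without doublets, -1.55 at resolution 0.4, -1.55 with the members kept in the clustering, -1.60 as a mean over cells, -1.40 without the top cell of each gene and -0.57 without the osteoblast-gene cells. The Adam sum was -0.085 as a mean over cells. The Adamts sum was 0.16 as a mean over cells, 0.48 without top cells and 0.15 without osteoblast-gene cells. The Timp sum was -2.15 without top cells and -2.49 without osteoblast-gene cells. The 3 reversals were Mmp13 (1.68), Timp1 (0.23) and Adamts1 (-0.13), all without the osteoblast-gene cells of the fibroblast-like class. Of these intervals that of Mmp13 alone left out 0. Adam15, at 40.0 CPM in LEPR stromal and 31.5 CPM in all fibroblast-like cells, was at -0.03 (-0.67 to 0.69) without those cells. It was not counted as reversed, because its main interval included 0. A fold of 2 gave 9 members higher instead of 3 and 9 lower instead of 8, where 17.8% and 9.58% of all genes were. A minimum of 100 UMIs gave 5 of 23 members lower, where 1.92% of all genes were. A minimum of 5 UMIs gave 11, and the share of all genes at that minimum was not computed. Leaving out the osteoblast-gene cells also gave 5, of 28 members tested instead of 30, where 3.31% of all genes were, since Mmp16 and Adamts6 fell under the minimum of UMIs and Mmp13 changed sign. With 1 table alone the Mmp sum ranged from -1.75 to -1.68, the Adam sum from 0.13 to 0.21, the Adamts sum from 0.30 to 0.35 and the Timp sum from -2.39 to -2.36, with 3 to 4 members higher and 7 to 8 lower than in fibroblast-like cells and 27 to 28 higher than in erythroid-like cells. For 1 table alone, the shares of all genes past the fold were not computed. Except for the alternatives that leave out cells or use fewer genes, the cause of a change was not tested. With 63 endothelial-like cells, a count of 0 allows up to 25.0 CPM. That class had 17 cells at resolution 0.4 and with the members kept, and its values were not recomputed there.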
